A study of Mus musculus with 5 samples.

Results

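Among 3423 genomic regions that held an RXRα peak in both libraries from alveolar macrophages (AMs) with intact Rxra and Rxrb, 201 also held a peak in AMs from mice in which Cre was directed at both genes. These 201 regions were chosen on the measured peaks themselves. The peaks of WT A and WT G that overlapped by at least 1 bp were merged into 10461 regions, the 3423 with a peak of both lists were kept, and a region was counted when a peak of KO A or KO G overlapped it by at least 1 bp. The share with a KO peak was thus 5.87%, with 2.16% of the 3423 regions under a KO A peak and 5.35% under a KO G peak. These shares are the selection itself and have no test. Peaks of both KO lists lay in 56 of the 201 regions, of KO A alone in 18 and of KO G alone in 127, and the remaining 3222 WT regions held no KO peak.

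AMs are the resident macrophages of the airspaces and were sorted from the bronchoalveolar lavage of 9-week-old C57BL/6J mice. All mice carried floxed Rxra and Rxrb. WT A and WT G came from animals without Cre (CD11cCre- Rxrabfl/fl), and KO A and KO G from animals with Cre under CD11c control (CD11cCre+ Rxrabfl/fl), a promoter that acts in AMs and also in other CD11c-expressing cells. There were 2 libraries per genotype, whose letters A and G recur in both genotypes without a label that says what they stand for, and a single input from Cre-negative AMs served as background for all 4. The comparison asks where an RXRα peak was still called once the gene had been targeted. Peak lists hold no transcript levels, so neither the loss of Rxra nor the purity of the sorted AMs could be checked in them. The paper reports efficient deletion of both genes, measured as mRNA, in mature and immature AMs of this model. It describes the cells profiled for RXRα as mature AMs. In the peak lists, AMs that escaped Cre, remaining protein and binding of the antibody to other targets cannot be told apart.

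RXRα is a nuclear receptor that binds DNA as a partner of other nuclear receptors, among them PPARγ, the LXRs and the retinoic acid receptors. Each receptor of a pair reads a hexamer close to AGGTCA, and the spacing between the hexamers differs with the partner. A direct repeat with 1 base between the hexamers (DR1) is an element of PPAR-RXR pairs, but a match does not tell which pair binds it. RXRs also form homodimers, as the paper states. PPAR-RXR pairs control the uptake, storage and oxidation of fat, a central task of AMs that clear surfactant lipid.

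The 4 lists differed in length and depth. The WT lists counted 4751 (WT A) and 9766 peaks (WT G), the KO lists 83 (KO A) and 208 (KO G). Relative to WT A, the depth estimated from the caller’s background and the narrowest peak width was 0.209 (WT G), 0.572 (KO A) and 0.750 (KO G). By this estimate, which was not tested, both KO libraries were deeper than WT G and shallower than WT A. The weakest peaks of WT A and KO A rested on 10 fragments, those of WT G on 5 and those of KO G on 8. A region counted as without KO peak may therefore hold enrichment below these limits.

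The DR1 elements in the summit windows of some members are shown to give the sequence of such a match. Each was read from GRCm38 (mm10) in the window from 50 bp before to 50 bp after the summit of the strongest WT peak. They are printed 5′ to 3′ on their own strand, with the 2 hexamers in capitals, the spacer base and 5 upstream bases in lower case. The motif was AGGTCANAGGTCA with at most 2 mismatches, searched on both strands. The regions near Cebpb, Trim25 and Shc3 belong to the 10 with the strongest KO peaks among members of ordinary local background (under 3 times the genome-wide level), ranked by the smaller of the 2 KO −log10 q values, and the other 7 of these 10 had no DR1 in the window. The regions near Pdk4, Plin2 and Klf6 belong to the gene lists described below.
Cebpb, chr2:167724065-167724077, minus strand: gccacAGGGCAcAGGGCA
Cebpb, chr2:167724123-167724135, plus strand: tgactGGGTCAaAAGTCA
Trim25, chr11:89024387-89024399, minus strand: ctcatAGGACAaAGTTCA
Shc3, chr13:51553575-51553587, plus strand: gaacgAGGGCAaAAGTCA
Pdk4, chr6:5509827-5509839, plus strand: gaagtAGGTGAaAGGTTA
Pdk4, chr6:5509908-5509920, plus strand: ttagtAGGTGAaGGGTCA
Plin2, chr4:86690272-86690284, plus strand: aaactAGGGCAaAGTTCA
Klf6, chr13:5875715-5875727, plus strand: ctttcAGGTCAaAAGCCA

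Every one of these elements had 2 mismatches. The windows near Cebpb and Pdk4 were the only member windows with more than 1 match, and the Cebpb window held a further match that overlapped the first. Members with a DR1 of 1 mismatch included those near Enc1 and 4931440F15Rik, which were picked out after their values were seen. Both lay under a KO G peak and under no KO A peak, as the values below show.
Enc1, chr13:97295596-97295608, plus strand: ctagcAGGTCAaAGGTCT
4931440F15Rik, chr11:29808697-29808709, minus strand: aggccCGGTCAgAGGTCA

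At the Enc1 element WT A and WT G reached −log10 q of 17.0 and 13.2, and KO G 6.31. At the 4931440F15Rik element the values were 12.3, 11.8 and 6.26. Both WT values were above the KO value at either element, as was the case for fold enrichment at most members of ordinary background.

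The summit windows of Plin2 and Angptl4 show the contrast between a member with the element and one without. Both genes are well-known PPAR targets, and both windows are given on the plus strand with DR1 hexamers in capitals.
Plin2, chr4:86690206-86690306: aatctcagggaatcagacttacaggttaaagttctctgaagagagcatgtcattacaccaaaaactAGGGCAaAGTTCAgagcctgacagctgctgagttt
Angptl4, chr17:33779380-33779480: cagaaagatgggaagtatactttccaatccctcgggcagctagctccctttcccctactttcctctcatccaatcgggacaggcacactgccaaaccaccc

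The Angptl4 window held no DR1 even with 3 mismatches, and no match says only that these letters were absent from these 101 bp. The region around it was 2063 bp wide.

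Regions with a KO peak were concentrated among the strongest WT regions. All 3423 regions were ranked by the sum of their ranks of −log10 q in WT A and WT G and cut into 10 classes of 342 or 343 regions, class 1 being the strongest. In class 1, 121 of 343 regions had a KO peak (35.3%, 95% exact binomial interval 30.2 to 40.6%), in class 2 it was 35 of 342 (10.2%), and in class 3 it was 17 of 342 (4.97%). Classes 6 to 10 held 11 of the 201 members together. Of the 20 best-ranked regions 18 had a KO peak, and of the 50 best-ranked 38. Strength in WT belongs to the contrast that chose the members, so these shares describe the selection. All intervals here and below cover counting error over regions and not the spread between animals.

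**Figure D1:**
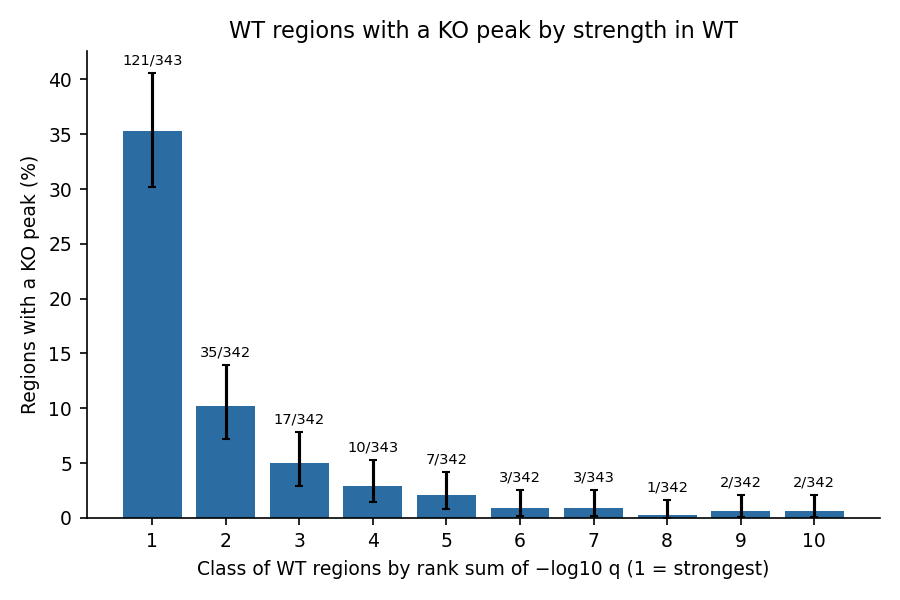
Share of WT regions with a KO peak (%) in 10 classes of the WT ranking, from the strongest (1) to the weakest (10), with 95% exact binomial intervals and the counts above the bars. The share fell from 35.3% in class 1 to 10.2% in class 2 and stayed below 5% from class 3 on.

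Members had a median −log10 q of 18.7 (WT A) and 15.9 (WT G), against 7.14 and 6.94 in the regions without KO peak. Their median width was 912 bp against 561 bp. Within class 1 the contrast was smaller. There the medians were 23.3 (WT A) and 20.3 (WT G) for the 121 members, and 17.3 in both lists for the 222 regions without KO peak.

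The strongest regions without a KO peak lay near Pim1, a serine/threonine kinase, C5ar2, a receptor of complement fragments, B4galnt1, a ganglioside synthase, Rbpms, an RNA-binding protein, and Shtn1, a regulator of neurite growth. The Pim1 region (chr17:29434678-29436167, at an annotated promoter 55.3 kb upstream of Pim1) ranked 6 of 3423, and its −log10 q reached 37.0 (WT A) and 38.1 (WT G). At C5ar2 the values were 27.2 and 29.7, and at B4galnt1 25.9 and 31.3. These exceeded the WT values of most members, and neither KO list had a peak there.

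The members fell into 2 kinds by the local background of the shared input, the number of fragments expected at the peak. In 190 members the background was under 3 times the genome-wide level, here called ordinary. In 11 it was at or above 3 times, which was the case in 2 of the 3222 regions without KO peak (5.47% against 0.0621%). Without KO G it was the case in 11 of 74 members, a difference of 14.8 points instead of 5.41. The background entered every peak call, so this too describes the selection. All 11 had a KO A peak and 10 a KO G peak, whereas 46 of the 190 ordinary members had peaks of both KO lists, 17 of KO A alone and 127 of KO G alone.

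At ordinary members the KO peaks were lower than the WT peaks of the same region. Fold enrichment is the authors' ratio of fragments to background at the summit, with 1 added to both. Over the 190 regions its median was 11.4 (WT A) and 11.6 (WT G). It was 7.12 over the 63 regions with a KO A peak and 6.69 over the 173 with a KO G peak. The median ratio of KO to WT in the same region was 0.60 for KO A to WT A, 0.60 for KO G to WT A, 0.61 for KO A to WT G and 0.61 for KO G to WT G. Without the added 1, the ratio of fragments to background gave 0.64 (KO A) and 0.67 (KO G) against WT A, and 0.45 for either against WT G. In 172 of 190 every KO value lay below both WT values. No test was made on these, since a region had to pass the threshold in a KO list to be included and had to pass it in both WT lists.

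At the 11 members of high background the KO peaks were of similar height to those of WT A and mostly lower than those of WT G. The median ratio to WT A was 1.10 for KO A and 1.07 for KO G, with 7 of 11 and 7 of 10 ratios above 1. Against WT G it was 0.80 and 0.76, with 2 of 11 and 2 of 10 above 1. In 1 of the 11 every KO value lay below both WT values.

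**Figure D2:**
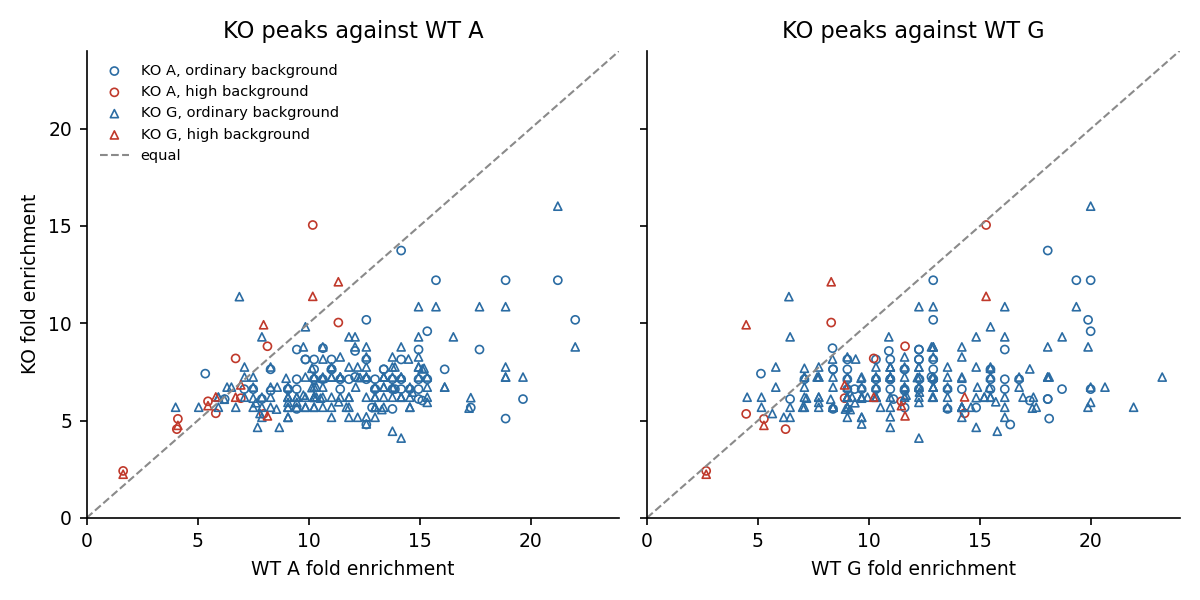
Fold enrichment of KO A peaks (circles) and KO G peaks (triangles) against WT A (left) and WT G (right) in the same region, for members of ordinary (blue) and high (red) local background, with the line of equality dashed. Most blue points lie below the line, with median ratios of 0.60 to 0.61, and the red points scatter around it against WT A.

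The 5 members of highest background were a region at Gm10800 (chr2:98666306-98666887, 49.9 times the genome-wide level), one over the ribosomal RNA annotation CT010467.1 and the lincRNAs Gm42418, Gm26917 and AY036118 (chr17:39843045-39848837, 21.9 times), one in Lars2, a mitochondrial leucyl-tRNA synthetase (chr9:123461855-123462161, 9.89 times), one in Camk1d (chr2:5379133-5379372, 8.77 times), and one without annotated gene (chr6:3201315-3201581, 7.97 times). The region over the ribosomal RNA was the best-ranked of all 3423, where the WT lists gave −log10 q of 54.5 (A) and 96.2 (G) and the KO lists 63.3 (A) and 47.6 (G). In Lars2, with the lists in this same order, the values were 41.1, 50.4, 45.2 and 20.6. At Gm10800 they were 3.11, 9.53, 11.8 and 9.64, with WT A the lowest of the 4. KO A exceeded WT A at all 3 regions. Over all 11 members of high background the median −log10 q was instead higher in WT A (30.4) than in KO A (20.3).

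The 10 ordinary members with the strongest support in both KO lists, ranked by the smaller of the 2 KO −log10 q, lay near Cebpb, Trim25, Gsap, Shc3, Gm20403, Dhrs3, Abcd2, Stk17b, Atp13a3 and Man2a1. The Cebpb region (chr2:167723521-167724593) lay 35.1 kb downstream of the start of Cebpb, a bZIP factor of myeloid cells, inside the non-coding gene A530013C23Rik. The WT peaks reached −log10 q of 48.5 (A) and 36.4 (G) and the KO peaks 18.9 (A) and 29.3 (G), and the KO G value was the highest of any ordinary member. Its fold enrichment was 21.2, 20.0, 12.2 and 16.0 in the same order, so both KO peaks were below both WT peaks.

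The region near Trim25, an E3 ubiquitin ligase (chr11:89023868-89025012, 25.1 kb downstream of the start), reached −log10 q of 41.3 and 34.7 in the WT lists, 18.9 and 15.1 in the KO lists. For this and the following regions, values are given in the order WT A, WT G, KO A, KO G. At Gsap, whose product activates γ-secretase (chr5:21188408-21190410, intronic), the values were 31.4, 18.8, 18.9 and 15.1. KO A thus reached WT G in −log10 q, but its fold enrichment was lower (12.2 against 12.9). At Shc3, a signalling adaptor (chr13:51553237-51553888, intronic), they were 20.3, 9.26, 11.2 and 11.1. There WT G was the lowest of the 4.

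The region near Gm20403 (chr12:54992640-54993977) reached −log10 q of 25.9 and 31.3 in the WT lists, 23.1 and 9.89 in the KO lists. KO A and KO G thus differed more from each other than the WT libraries did. Abcd2 encodes a peroxisomal transporter of very long-chain fatty acids, and its intronic region (chr15:91178468-91180328) had 22.0, 18.8, 13.5 and 9.89. Stk17b is a serine/threonine kinase, and the region 66.3 kb upstream of it, in an intron of Hecw2 (chr1:53850918-53852159), had 37.0, 17.3, 9.71 and 15.1.

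Atp13a3 encodes a P-type ATPase that carries polyamines, and the region 1.74 kb upstream of its start (chr16:30389570-30390977) had 28.6, 26.4, 9.71 and 15.1. Man2a1 encodes a mannosidase of N-glycan processing, and the region 8.38 kb upstream (chr17:64591999-64592708) had 20.6, 14.5, 9.60 and 11.1. In both, the 2 KO values lay below the 2 WT values, as fold enrichment did at most ordinary members.

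The members were described by the protein-coding gene with the nearest transcription start. They were nearest to 193 genes, 9.98% of the 1933 genes nearest to any of the 3423 regions, and each gene list below is read beside that share. The lists were drawn up with earlier results of these data known, so a high share in a list is no independent evidence for it. No test was run on them.

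Of the PPAR targets of fat storage and oxidation, 22 of the 32 listed genes were nearest to a WT region and 7 of these 22 to a member (31.8%, 95% exact interval 13.9 to 54.9%), against the 9.98% over all genes. By region, 8 of 40 were members (20.0%, interval 9.05 to 35.6%), against 5.87%. Of the 9 regions of the list that fell in class 1 of the WT ranking 6 were members, against 121 of 343 (35.3%) over all regions of class 1. In class 1 it was 1 of 2 for the LXR targets and 2 of 4 for the retinoid genes. For the AM genes it was 1 of 5, and for the macrophage transcription factors 4 of 12. Strength in WT moved with the count of members in the PPAR list, and its part in that count was not tested. The 7 genes were Plin2, Angptl4, Cpt1a, Pdk4, Cd36, Hadha and Hilpda, while 15 others, among them Fabp1, Acadl, Lpl, Cidec and Acsl1, had WT regions and no KO peak.

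Plin2 coats lipid droplets. The member 20.6 kb upstream of it (chr4:86689669-86691706), which holds the element printed above, reached −log10 q of 30.0 and 18.2 in the WT lists, 6.15 and 6.31 in the KO lists. Hilpda, another lipid droplet protein, had a member 26.2 kb upstream (chr6:29245323-29247230) with 29.6, 29.4, 3.95 and 7.35, and a second one 1.31 kb upstream (chr6:29271007-29271356) with 8.06, 9.26, no KO A peak and 5.20. These were the only regions of Hilpda, so both WT regions of this gene were members. In Plin2 and the distal Hilpda region the KO values were well below the WT values and the groups did not overlap. This was the common pattern, since in fold enrichment every KO value lay below both WT values in 172 of 190 ordinary members. The −log10 q also depends on depth, which differed between the lists.

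Angptl4 is a secreted inhibitor of lipoprotein lipase. Its intronic member, 1.91 kb downstream of the start (chr17:33778894-33780956), reached 28.6 and 31.3 in the WT lists, 3.99 and 6.31 in the KO lists. Cd36, a receptor for fatty acids and oxidized lipoproteins, had an intronic member 0.752 kb from its start (chr5:17833600-17836287) with 23.3, 26.4, no KO A peak and 4.15. Both were among the 52 best-ranked regions in WT. Their KO values lay below both WT values, as fold enrichment did at most ordinary members. At Cd36 the KO G summit lay 302 bp from the summit of the strongest WT peak.

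Pdk4 inhibits pyruvate dehydrogenase and so spares glucose when fat is burned. The member 13.7 kb upstream of it (chr6:5509502-5510477), with the pair of DR1 elements printed above, reached 28.6 and 26.4 in the WT lists, 6.15 and 11.1 in the KO lists. Cpt1a admits fatty acids to mitochondria, and its intronic member, 2.29 kb from the start (chr19:3325220-3325938), had 12.4, 13.2, 5.04 and 4.15. Hadha is a subunit of the mitochondrial enzyme of long-chain fat oxidation, and its intronic member (chr5:30151825-30153138) had 18.2, 20.3, no KO A peak and 4.15. The KO values were below the WT values at each of these genes, as fold enrichment was at most ordinary members.

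Of the LXR targets 2 of 8 genes with a WT region were nearest to a member (25.0%, interval 3.19 to 65.1%), namely the cholesterol exporters Abca1 and Abcg1, and 2 of 21 regions were members (9.52%, interval 1.17 to 30.4%), against 5.87% over all regions. The member 17.9 kb upstream of Abcg1 (chr17:31038165-31041441) reached −log10 q of 25.9 and 32.5 in the WT lists and 4.15 in KO G. The KO G summit there lay at −2076 bp from the summit of the strongest WT peak, in a region 3277 bp wide. The KO and WT values of this member thus belong to different positions. The member nearest to Abca1 (chr4:53217902-53218661) lay 58.4 kb upstream at another annotated promoter and was weak in WT, with 6.05 and 9.21, and 4.09 in KO G. Its KO G summit lay at −284 bp from the strongest WT summit. Neither member had a KO A peak.

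Of the retinoid genes 2 of 4 with a WT region were nearest to a member (interval 6.76 to 93.2%), and 2 of 24 regions were members (8.33%, interval 1.03 to 27.0%), against 5.87% over all regions. The genes were Dhrs3, which reduces retinaldehyde, and Tgm2, a transglutaminase that retinoic acid induces. They ranked 3 and 2 among the 3423 regions. The Dhrs3 member, 68.2 kb downstream of the start (chr4:144960361-144962258), reached −log10 q of 51.5 and 38.0 in the WT lists, 13.5 and 9.89 in the KO lists. Its KO A summit lay 367 bp from the strongest WT summit. The Tgm2 member, 28.9 kb upstream (chr2:158174535-158176075), reached 41.3 and 45.2 in the WT lists and 6.31 in KO G, with no KO A peak. A top rank in WT thus went with a KO peak of quite different height at these genes and at Cebpb. Rara and Hic1 had WT regions only.

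Of the AM genes 3 of 16 with a WT region were nearest to a member (18.8%, interval 4.05 to 45.6%), and 3 of 35 regions were members (8.57%, interval 1.80 to 23.1%), against 5.87% over all. Itgax encodes CD11c, whose promoter drives the Cre, and its exonic member (chr7:128133545-128134082) reached −log10 q of 8.06 and 17.3 in the WT lists and 5.20 in KO G. Cdh1, E-cadherin, had an intronic member (chr8:106611110-106612677) with 17.0 and 17.3 in the WT lists, 8.48 and 7.47 in the KO lists. Tlr2, a receptor for bacterial lipoproteins, had one 3.36 kb upstream (chr3:83844685-83845574) with 9.11, 5.73 and 2.24 in KO G. Pparg, Siglecf, Car4 and Marco were among the 13 AM genes with WT regions and no KO peak.

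Of the macrophage transcription factors 3 of 17 genes (17.6%, interval 3.80 to 43.4%) and 5 of 81 regions (6.17%, interval 2.03 to 13.8%) were members. By region this was close to the 5.87% over all. Cebpb had the most members of any gene, 3 of its 15 regions. The second lay at 46.3 kb (chr2:167734898-167735621), and reached −log10 q of 24.6 and 9.26 in the WT lists, 7.30 and 6.31 in the KO lists. The third, with the weakest KO peak, lay at 84.3 kb (chr2:167772853-167773611), and reached 15.8 and 14.2 in the WT lists and 3.16 in KO G alone. Klf6 had 23.3, 21.8 and 3.16 in KO G (chr13:5875273-5876244), and Runx1, in an intron, 22.0, 11.8 and 2.51 in KO G (chr16:92783400-92784744). Only Cx3cr1 of the genes of monocytes and other macrophages had a WT region, and it had no KO peak.

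**Figure D3:**
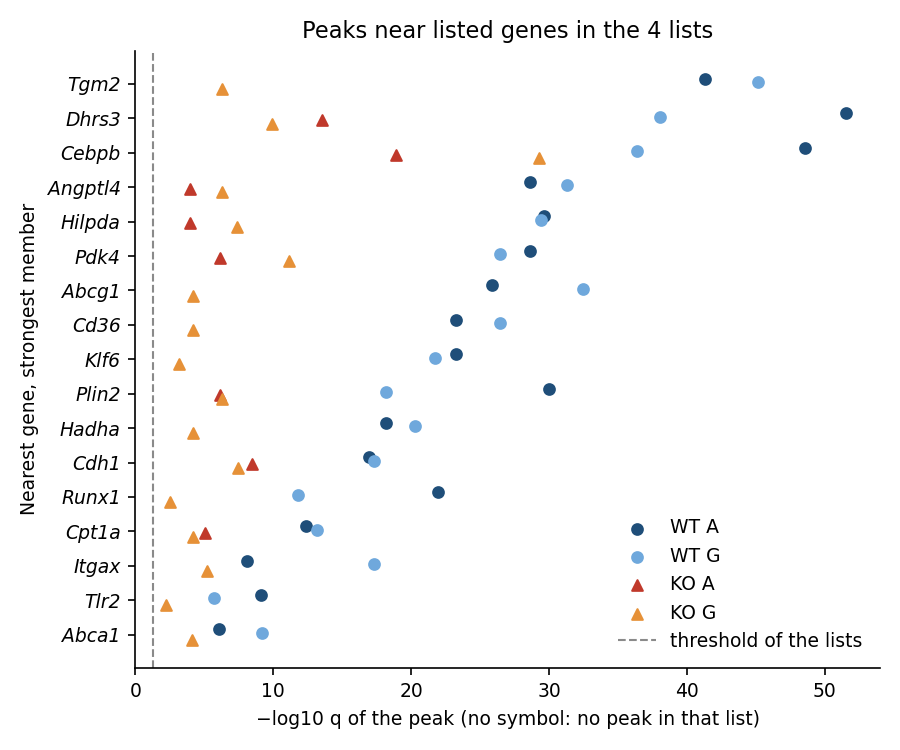
The −log10 q of the peak in WT A, WT G (circles), KO A and KO G (triangles) at the strongest member of each listed gene with a member, in order of WT rank, with the threshold of the lists dashed. The KO peaks lie between 2.24 and 29.3, with the highest at Cebpb, followed by Dhrs3 in KO A at 13.5.

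Besides Cebpb, 6 genes had 2 members each. These were Nedd9, of 9 regions, Lpp and Sgms1, of 8, Eepd1, of 5, and Dnttip2 and Hilpda, of 2. Of the 193 genes 79 had no WT region other than members.

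The positions of the members were close to those of the other WT regions. Of the 201, 97 lay in introns (48.3%), 73 were intergenic (36.3%), 18 lay in promoters, defined as 1 kb before to 100 bp after a start (8.96%), 8 at transcript ends and 5 in exons. The promoter share was 1.97 percentage points lower than in regions without KO peak (10.9%), with a 95% Newcombe interval of the difference from −5.38 to 2.90 points. The intron share differed by −2.73 points (−9.76 to 4.35) and the intergenic share by 5.13 points (−1.41 to 12.2). The median distance to the nearest protein-coding start was 17.8 kb in members (95% interval 14.3 to 25.1) and 15.7 kb (14.7 to 16.7) in the others. All of these intervals of the differences include 0, and those of the medians overlap. To the nearest start of any gene, not only protein-coding ones, the median in members was 9.50 kb (7.44 to 11.6). Without WT A, with the 9766 peaks of WT G as regions, the promoter share of members differed by −6.95 points, with an interval from −10.2 to −2.27 that excludes 0. The 11 members of high background had a median of 88.7 kb, with an interval from 9.47 to 241 kb that contains those of both groups. Of these, 5 lay over 100 kb from a start (45.5%), 37.0 points above the regions without KO peak (interval 12.8 to 63.5). Exons held 2 of the 11 (18.2%), 14.7 points above those regions (1.64 to 44.2). For promoters, transcript ends, introns and intergenic positions the intervals of the difference include 0.

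The DR1 element was found at a higher share of summits in members than in the other WT regions. It was found in 24 of 201 windows (11.9%, interval 7.80 to 17.2%) and in 193 of 3222 (5.99%, 5.20 to 6.87%), a difference of 5.95 points with an interval from 2.07 to 11.2. Without KO G, with the 74 regions under a KO A peak as members, it was 4.57 points with an interval from −0.732 to 13.7 that includes 0, and without WT A 3.50 points (0.781 to 7.78). The element was in 6.34% of the windows of all 3423 regions and in 1.55% of windows of the same length 500 bp to each side. In the members the share in such flanking windows was 0.746%. No high-background member had it, so that in the 190 ordinary members it was in 12.6%. A version of the repeat made of the shuffled hexamer GACTGA was in 0.498% of the members and 0.900% of the others.

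Members were stronger in WT than the other regions, and among regions without KO peak DR1 was in 8.11% of class 1 and 2.94% of class 10. Within classes 1 and 2 of the WT ranking it was in 21 of 156 members (13.5%) and 49 of 529 others (9.26%), a difference of 4.20 points with an interval from −1.07 to 10.8 that includes 0. With up to 3 mismatches the repeat was in 35.3% of members and 20.3% of the others, and within classes 1 and 2 in 37.2% and 25.7%, a difference of 11.5 points (3.30 to 20.0). The looser motif was also in 10.2% of the flanking windows of all regions. With at most 1 mismatch it was in 1.49% of members and 1.24% of the others.

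Repeats with wider spacing were rarer and differed less. DR4, an element of LXR-RXR pairs (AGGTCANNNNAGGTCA), was in 1.49% of members and 1.92% of the others. DR5, an element of retinoic acid receptors with RXR (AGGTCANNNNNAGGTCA), was in 3.98% and 2.48%. The single hexamer AGGTCA was in 16.4% and 15.2%, a difference of 1.24 points (−3.42 to 7.11). Any repeat from DR1 to DR5, each searched on both strands, was in 21.4% of members and 12.9% of the others. Any of these repeats or the single hexamer was in 28.4% of members and 20.1% of the others, so most member windows held none of these letters.

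Among motifs of partner factors, that of the C/EBP family (TTGCNNAA) was in 31 of 201 members (15.4%) and 344 of 3222 others (10.7%), a difference of 4.75 points with an interval from 0.266 to 10.5. Without KO G, with the 74 regions under a KO A peak as members, the difference was −1.53 points. Without WT A it was 3.05 points (−0.591 to 8.08) and without WT G 2.83 points (−1.34 to 8.26), so that both intervals include 0. With only KO peaks of −log10 q of 2 or more it was 3.92 points (−0.477 to 9.61). At the summit of the strongest WT A peak it was 3.19 points (−1.15 to 8.82), and these intervals include 0 too. Within classes 1 and 2 it was 3.74 points (−2.07 to 10.8). The motif of PU.1, the lineage factor of macrophages (GAGGAAGT), was in 5.47% and 4.31%, a difference of 1.16 points (−1.35 to 5.27). Those of AP-1 (TGANTCA) and RUNX (TGTGGTT) were in 5.47% and 4.98% of members and in 7.64% and 5.99% of the others, and the intervals of both differences include 0. DR1 and C/EBP motifs occurred together in 2 members.

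**Figure D4:**
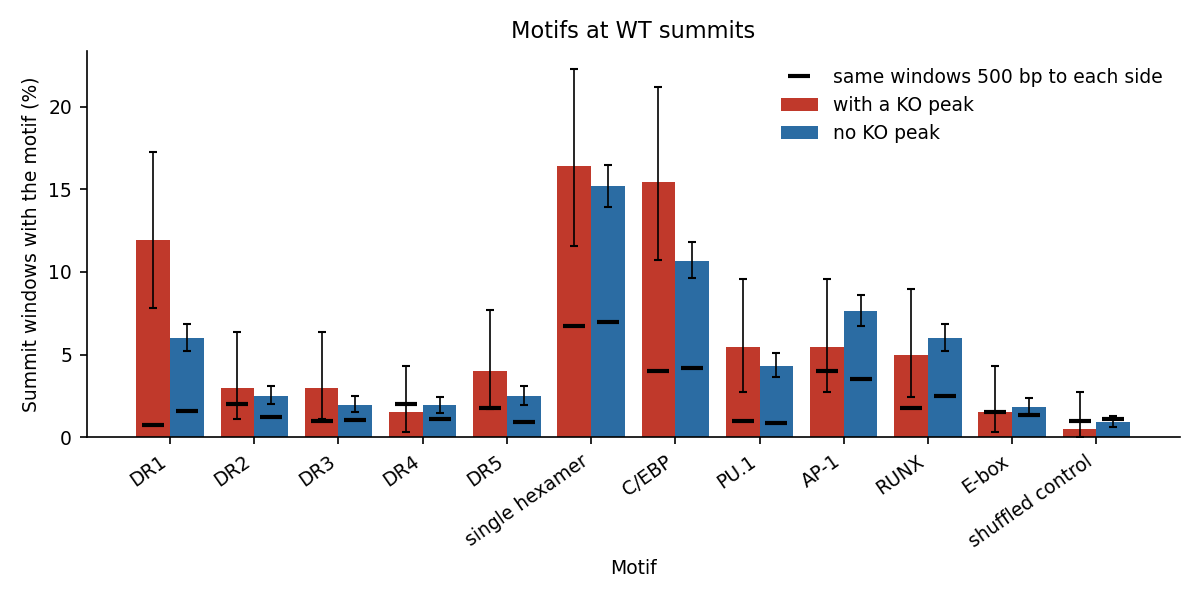
Share of summit windows (%) with each motif in the 201 members (red) and the 3222 WT regions without KO peak (blue), with 95% exact binomial intervals, and the share in windows 500 bp to each side (black dashes). DR1 stands at 11.9% in members and 5.99% in the others, and the shuffled control stays below 1% in the summit windows of both.

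The members were chosen for an overlap of KO and WT peaks, so the distances between them describe the selection. All peaks of KO A had a median width of 197 bp and those of KO G 148 bp, against 228 bp (WT A) and 323 bp (WT G). Of the 270 KO peaks at members 265 lay wholly inside the WT region. At ordinary members the median distance between the summits of KO G and WT A was 63 bp, and between KO A and WT A 55 bp. Against WT G the distances were 97 bp for KO A and 99 bp for KO G. The summits of WT A and WT G were 84.5 bp apart in the same regions, between the KO distances to WT A and those to WT G. Counted from the strongest KO peak to the strongest WT peak, 122 of 190 summits (64.2%) lay within 100 bp. In windows around the KO G summits DR1 was in 27 of 183 (14.8%, interval 9.95 to 20.7%), and around the KO A summits in 9 of 74 (12.2%, 5.71 to 21.8%). The elements themselves were a median of 21 bp from the WT summit in the 24 members and 22 bp in the 193 other regions.

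**Figure D5:**
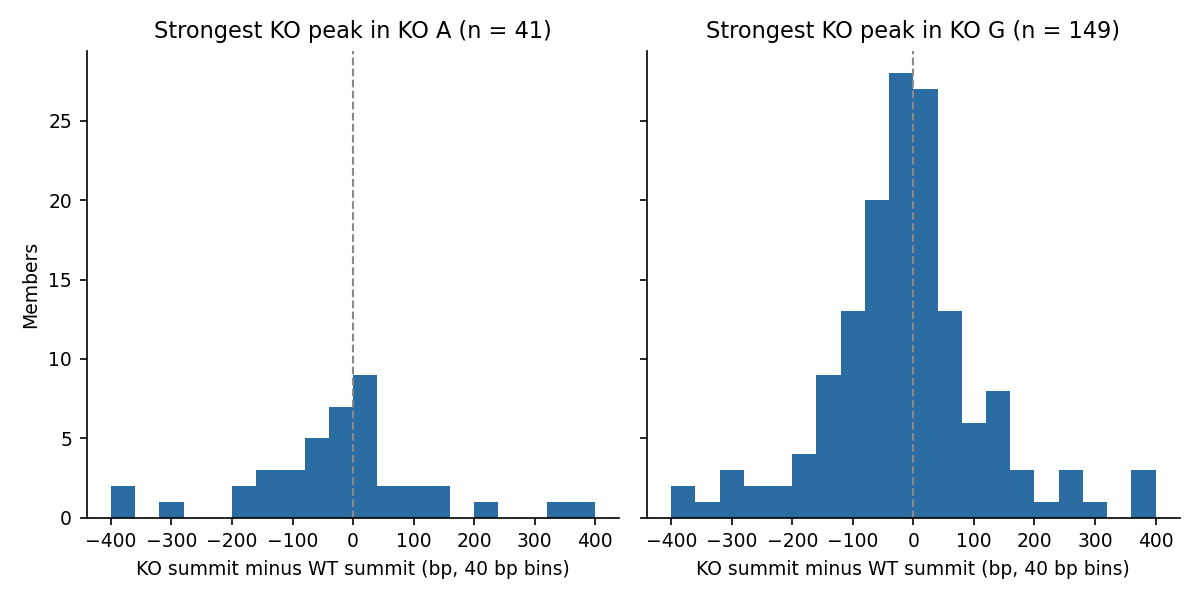
Distance (bp) of the summit of the strongest KO peak from the summit of the strongest WT peak in the 190 ordinary members, in bins of 40 bp, by the KO list that held the strongest peak (41 members in KO A, 149 in KO G), with 5 distances beyond 400 bp drawn in the outermost bins. Most summits lie within 100 bp of the WT summit (26 of 41 and 96 of 149).

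The choice of overlap had little room to act. The smallest overlap of a KO peak with its region was 102 bp. It occurred for 30 peaks, and in each it was the full width of the KO peak, so that the overlap was limited by that width. The weakest KO peaks were those of KO G near Rreb1 and Ctu1, both with −log10 q of 1.39, just above the threshold of the list. On the other side, the nearest KO peak outside a WT region that held none was 301 bp from the region near Tmco4, with −log10 q of 3.16 in KO G. In all, 21 of the 291 KO peaks lay outside the 3423 regions, 7 of KO A and 14 of KO G. Of these, 6 lay within 3838 bp of the high-background region at Gm10800, and 5 met no peak of either WT list.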

How the data were processed

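RXRα was profiled by HT-ChIPmentation, chromatin immunoprecipitation with tagmentation on beads, in sorted AMs. Per the labels and the study's methods, the authors ran Cutadapt, then Bowtie2 on mm10, discarded duplicate reads and called peaks with MACS3 in each library against 1 input at a q threshold of 0.05. The deposited lists give per peak a fold enrichment (a ratio), −log10 p, −log10 q and an integer score, without counts, so the study's read-count model was not run. Fragments and local background were solved from fold enrichment and −log10 p under MACS3's Poisson model. Recovery of the background was checked on values simulated with the same formula, so that check does not test the model. Relative depth was the genome-wide background divided by the narrowest peak width of each list and by a scale fitted to the list. These widths, 116 bp (WT A), 215 bp (WT G), 138 bp (KO A) and 102 bp (KO G), stood for fragment length, which was not tested. The lists do not give the total depth of each library, and the sequencing quality data that the study provides were not set beside these estimates.

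Regions, motifs and positions were computed with pysam 0.24.0, scipy 1.17.1, pandas 2.3.3 and Python 3.11.15, on GRCm38 and GENCODE M21. Members and gene lists were chosen with earlier results of these data known. Named regions followed a rule: the 10 ordinary members with the highest smaller KO −log10 q, the 5 of highest background, every listed gene nearest to a member, the 5 best-ranked regions without KO peak, those at the limits of the selection, and genes with most members. Enc1 and 4931440F15Rik were named outside it, after their values were seen. Shares have exact binomial and Newcombe intervals. No p-value was computed, because regions are not replicates and 2 libraries per genotype cannot pass an exact permutation test.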

Additional observations from a re-analysis of the deposited data

How the results depend on the processing

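Of 61 alternative values for 7 results, 54 stayed within the interval of the result (counts within 1.5 times), 6 moved out of it and 1, of a difference whose interval excludes 0, reversed. No paired analysis was possible because the results come from no test, and the labels do not say whether the shared letters A and G pair libraries. The number of WT regions with a KO peak ranged from 74 to 183 without 1 KO library and was 207 or 208 without 1 WT library. Since 127 of 201 members rested on KO G alone, the count depends on that library. The C/EBP interval included 0 with KO peaks of −log10 q of 2 or more only and at the summit of the strongest WT A peak. The C/EBP difference ranged from −1.53 to 5.75 points over the libraries left out, and reversed without KO G. The DR1 difference ranged from 3.50 to 7.26 points over these, with an interval that includes 0 without KO G, and was 0.251 points with at most 1 mismatch, 15.1 points with at most 3, and 9.97 points (interval 4.86 to 16.2) in windows of 100 bp on each side. The PU.1 difference, whose interval includes 0, changed sign without WT A (−0.693 points), in windows of 100 bp on each side (−0.390) and in classes 1 and 2 of the WT ranking (−1.26). The promoter difference ranged from −6.95 to 0.00161 points, the lowest without WT A, where its interval excludes 0. The high-background difference ranged from 5.37 to 14.8 points over the libraries left out, the highest without KO G, where 11 of 74 had high background, and was 3.48 points with a threshold of 5 times. The median distance to a start was 9.50 kb over all genes instead of protein-coding ones. Leaving out regions of high background gives no value for the background share itself. The restriction to classes 1 and 2 of the WT ranking, and the member count without high background (190), were added after seeing the data. The weakest listed peak had 8 fragments in KO G and 10 in KO A, so weaker enrichment was not detectable in these lists, and the cause of each shift was not tested.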
